A study of Mus musculus and Rattus norvegicus with 28 samples.

Results

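A set of 33 genes that build, cap, fold and turn over the cardiac sarcomere was followed through the perinatal transition of mouse cardiomyocytes and in cultured rat cardiomyocytes. The genes were taken by symbol from 8 role groups, namely titin and the M-band with myosin binding protein C, Z-disc scaffolds, actin crosslinkers with Xin repeat proteins, intermediate filament and small heat shock proteins, caps of the thin filament pointed end, myosin folding factors with SMYD methyltransferases, ubiquitin ligases, and a taxilin. All 33 were found among 55450 mouse genes and 31 among 32623 rat genes, where Ttn and Tcap were not matched by symbol. Mouse cells came from left ventricles of wild-type C57BL/6 mice of both sexes at embryonic day 18.5 (E18.5) and postnatal days 1, 3 and 7 (P1, P3 and P7), untreated, with 2 RNA-seq and 2 ATAC-seq libraries per age. They were dissociated with trypsin and collagenase, depleted of attaching cells on plastic, and used without culture. Rat cells were neonatal ventricular cardiomyocytes (NRVCs) from P1 Sprague Dawley rats of both sexes, which received DMSO or 100 nM of the histone deacetylase inhibitor trichostatin A (TSA) 1 day after plating and were collected 48 h later, with 3 libraries each. RNA-seq gave expression as FPKM, a fragment count scaled by transcript length and library size, at a depth of 29.3 to 37.5 M aligned reads per mouse library and 28.2 to 38.5 M aligned reads per rat library, as worked out here from the proportion between deposited coverage and FPKM, and ATAC-seq gave peaks of open chromatin.

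The sarcomere is the contractile unit of striated muscle. Thin actin filaments are anchored and crosslinked at the Z-disc by alpha-actinin and a layer of PDZ and LIM domain scaffolds, their free pointed ends are capped by tropomodulin and leiomodins, and thick myosin filaments are crosslinked at the M-band by myomesins, while titin spans from Z-disc to M-band as a molecular spring. Myosin heads need dedicated chaperones to fold, filamin and desmin tie myofibrils to each other and to the membrane, and small heat shock proteins, BAG3 and muscle RING finger ligases clear strained or damaged components.

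Some of the members whose start site held both an ATAC-seq peak and a match to a muscle motif were chosen for reading at the sequence level. Matches in peak regions that are not printed include a CArG match at Myom1 and E-box matches at Lmod2 and Des. The stretches around the matches of the chosen members are printed as examples of a motif match inside a peak region before a start. That region held a peak in all 8 ATAC-seq libraries at Ldb3, in 7 at Myoz2 and Fhl2 and in 4 at Ttn. It did so in 3 at each Synpo2l match and in 2 at Mybpc3, namely P1 replicate 1 and P7 replicate 2. The sequences are from the RefSeq promoter table and genome of GRCm38.p6, run 5′ to 3′ along the gene's own strand, and have the match in capitals.
Ttn, MEF2 match starting 166 bases before the start, chr2:76982664-76982773, minus strand: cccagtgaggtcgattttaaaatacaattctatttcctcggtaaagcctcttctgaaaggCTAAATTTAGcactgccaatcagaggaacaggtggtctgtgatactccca
Synpo2l, MEF2 match starting 109 bases before the upstream start, chr14:20668414-20668523, minus strand: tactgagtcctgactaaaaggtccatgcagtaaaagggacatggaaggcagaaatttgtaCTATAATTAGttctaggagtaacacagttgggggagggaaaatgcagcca
Synpo2l, MEF2 match starting 144 bases before the downstream start, chr14:20664669-20664778, minus strand: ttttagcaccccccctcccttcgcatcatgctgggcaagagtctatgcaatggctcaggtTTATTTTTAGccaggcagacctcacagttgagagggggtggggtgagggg
Mybpc3, MEF2 match starting 90 bases before the start, chr2:91117994-91118103, plus strand: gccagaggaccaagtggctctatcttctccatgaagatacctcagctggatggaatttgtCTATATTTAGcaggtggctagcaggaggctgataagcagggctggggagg
Myoz2, MEF2 match starting 33 bases before the start, chr3:123035011-123035080, minus strand: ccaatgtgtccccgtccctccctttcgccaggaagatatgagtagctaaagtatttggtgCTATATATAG
Ldb3, CArG match starting 35 bases before the start, chr14:34588683-34588776, minus strand: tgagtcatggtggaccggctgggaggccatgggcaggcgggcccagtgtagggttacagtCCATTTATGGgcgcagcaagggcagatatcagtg
Fhl2, CArG match starting 31 bases before the downstream start, chr1:43163962-43164052, minus strand: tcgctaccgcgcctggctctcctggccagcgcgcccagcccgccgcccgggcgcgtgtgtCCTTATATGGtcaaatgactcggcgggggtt
The matches of Synpo2l (upstream start), Mybpc3, Myoz2 and Fhl2 also contain the letters TATA. These matches begin 109, 90, 33 and 31 bases before the start, and whether any of them acts as a TATA element was not tested.

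MEF2 factors and serum response factor are known activators of muscle genes, and their binding sites are the MEF2 consensus and the CArG box. Of the 33 members, 24 were in the promoter table, with 33 promoters of 250 bases before to 50 bases after a start. A MEF2 match on either strand was held by 8 of these 33 promoters (24.2%), against 3.19% of all 32851 promoters in the table, and lay at 7 members (Fhl2, Mybpc3, Myom3, Myoz2, Synpo2l, Ttn and Xirp2). A CArG match was held by 6 promoters (18.2% against 1.63%), at Fhl2, Ldb3, Myom1 and Nebl. The AP1 motif, TGACTCA or TGAGTCA, was held by 7 promoters (21.2% against 5.2%), and the E-box CAGCTG by 7 (21.2% against 16.3%). Promoters of one gene overlap, so they are not independent, and a match is a run of letters and not a measured binding site.

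The 33 genes took 1.022% and 1.262% of all TPM in the E18.5 libraries, 0.654% and 1.005% in the P1 libraries, 0.465% and 0.449% in the P3 libraries and 0.184% and 0.131% in the P7 libraries. Their summed level followed the same order, from 5429.9 and 6956 FPKM at E18.5 to 841.6 and 580.4 FPKM at P7. The P7 libraries were lower than the E18.5 libraries at 32 of the 32 members that passed the expression limit of 1 FPKM in 2 libraries, and such a pattern was found at 32.7% of all genes tested. Myom3, a myomesin of slow skeletal muscle, did not pass the limit and stayed at or below 0.105 FPKM in all libraries.

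**Figure D1:**
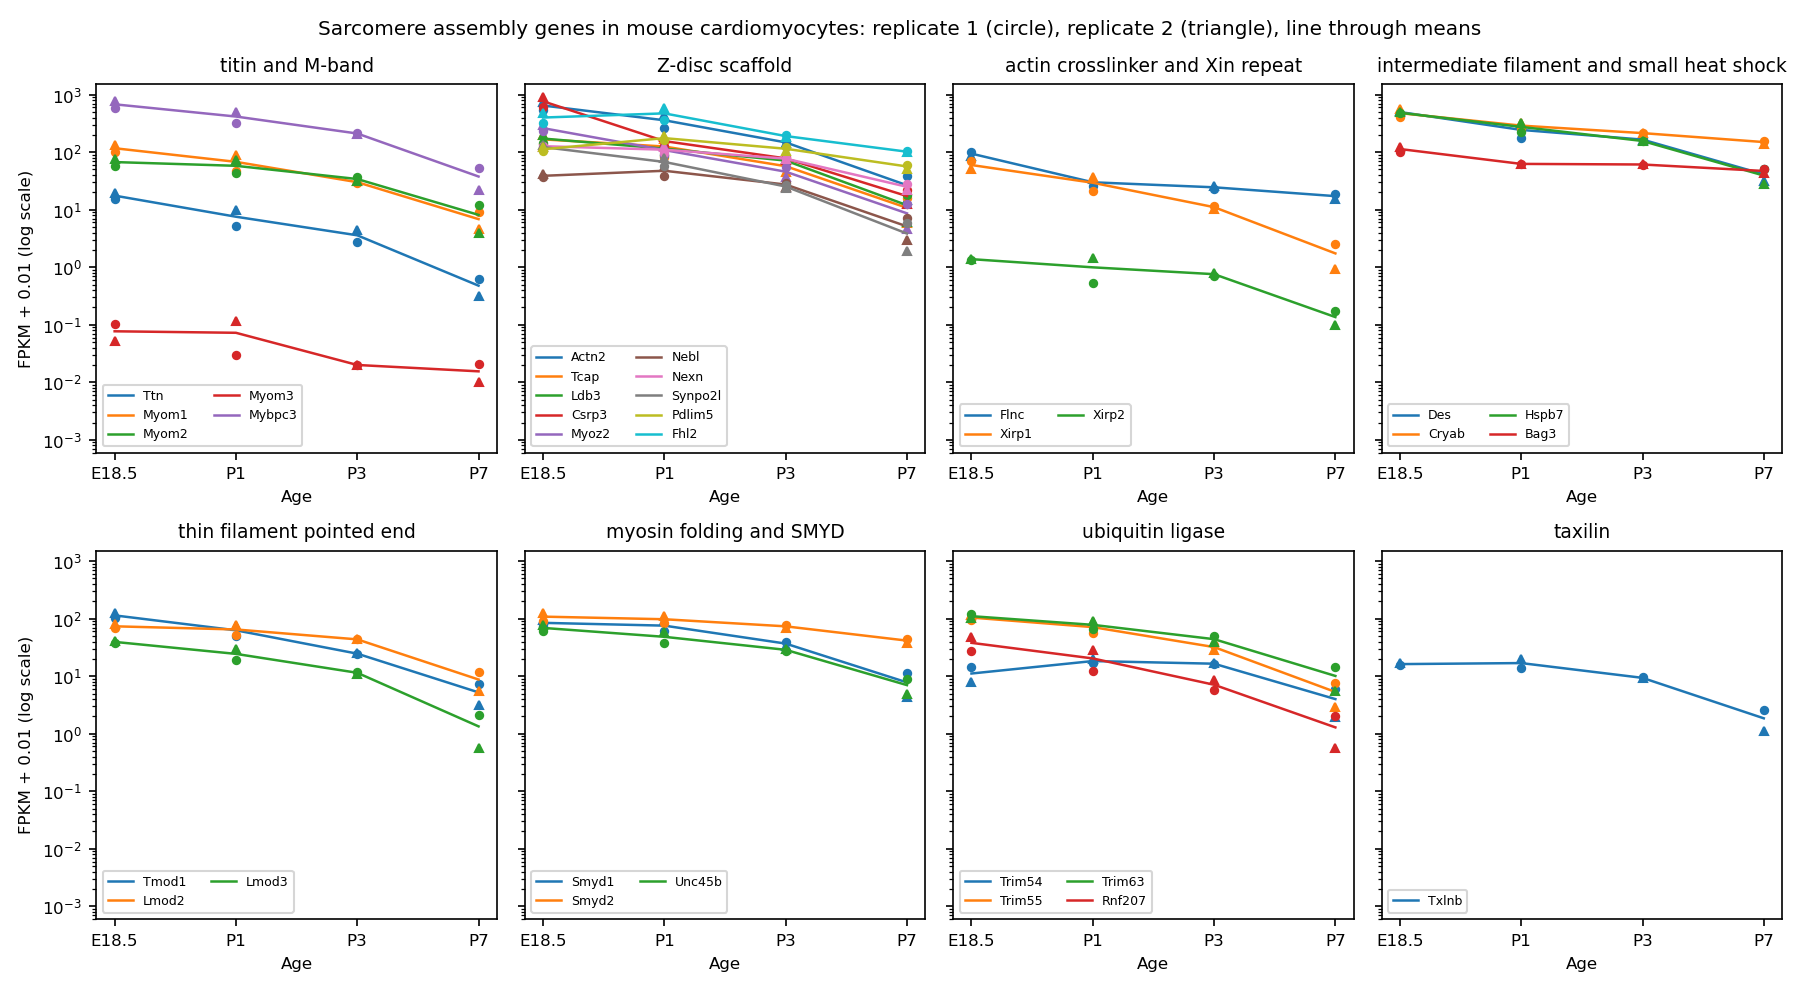
FPKM plus 0.01 (log scale) of the 33 genes in the 8 mouse RNA-seq libraries by age, 1 panel per role group, with circles for replicate 1, triangles for replicate 2 and lines through the mean of both. Every tested member was lowest at P7, Cryab led the P7 libraries, and Myom3 lay near the bottom of the scale throughout.

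Markers of the cell types that a ventricular preparation can hold moved with age too, and these values stand beside every mouse result. The summed level of 16 cardiomyocyte markers, none of which is a member, was 34497 and 44178 FPKM (E18.5), 16769 and 26341 (P1), 11134 and 9057 (P3) and 3006 and 1356 (P7), and 16 of 16 were called lower at P7. The sum over 12 fibroblast markers was 678 and 683 FPKM at E18.5 and 3873 and 4726 at P7, with 10 of 12 called higher. Smooth muscle and pericyte markers summed to 431 and 559.6 FPKM at E18.5 and 1671 and 1879 at P7, macrophage markers to 52.7 and 49.7 against 132.3 and 112.5, and endothelial markers to 523 and 282 against 435 and 376. The genes within these lists did not move together at P7. Of 10 smooth muscle and pericyte markers 5 were called higher and 3 lower, and of 10 endothelial markers 1 and 2. Of 8 macrophage markers 1 was called higher (Lyz2) and 1 lower (C1qb), with a median log2 fold change of 0.04. Erythroid markers summed to 29046 and 35395 FPKM at E18.5 and to at most 41.0 afterwards. Of 10 skeletal muscle markers, 7 were under 1 FPKM in all 8 libraries, among them Myod1 and Myog. The 2 that were tested, Mybpc2 and Tnni2, were both called lower at P1, P3 and P7. The list summed to 6.5 and 10.6 FPKM at E18.5 and to 2.0 and 1.2 at P7. In these bulk samples fewer cardiomyocytes and less RNA per cardiomyocyte cannot be told apart.

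Expression was compared on the log2(FPKM + 1) scale with limma over all 13979 genes that passed the limit, and a gene was called when its Benjamini-Hochberg adjusted p was below 0.05 and its log2 fold change exceeded 1 in either direction. The comparisons of P1, P3 and P7 with E18.5 share the E18.5 libraries. At P1, 6 of 32 members were called lower (Csrp3, Flnc, Myoz2, Ttn, Des and Xirp1), against 6.06% of all genes tested, and 0 of 32 were called higher, against 10.1%. At P3, 22 were called lower (8.88% of all genes) and 0 higher (13.0% of all genes). At P7, 31 of 32 were called lower (12.3% of all genes) and 0 higher (15.4% of all genes), Pdlim5 being the exception. Between P1 and P7, 28 of 32 were called lower (5.46% of all genes) and 0 higher (3.45% of all genes). Relative to E18.5 the members had a median log2 fold change of −0.65 (P1), −1.43 (P3) and −3.53 (P7), beside 0.15, 0.16 and 0.14 over all genes tested. Both libraries lay below both E18.5 libraries at 20 of 32 members for P1 (26.0% of all genes) and at 30 for P3 (28.4% of all genes). The P1 count rested on single libraries, as it fell without E18.5 replicate 1, E18.5 replicate 2 or P1 replicate 1. Such fits leave 1 library in a group, so their counts are not set beside the share of all genes. When single libraries were left out, the P1 log2 fold change ranged from −1.586 to −0.755 for Ttn. It ranged from −1.485 to −0.681 for Des and from −1.435 to −0.637 for Xirp1. The P3 count fell without E18.5 replicate 2.

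On the log2 scale the longest interval, from P3 to P7, held the largest step for most members, while the summed FPKM fell most from E18.5 to P1. The largest fall in mean log2(FPKM + 1) between successive ages lay between P3 and P7 for 27 of 32 members, between E18.5 and P1 for Csrp3, Flnc, Cryab and Bag3, and between P1 and P3 for Fhl2. The median step was −0.65 from E18.5 to P1, −0.79 from P1 to P3 and −2.08 from P3 to P7. In FPKM, the mean sum over the members fell by 2397 from E18.5 to P1, by 1720.5 from P1 to P3 and by 1364 from P3 to P7. Levels fell at every step for 27 members. The replicates of an age were not equally high. P7 replicate 1 exceeded replicate 2 at 31 of the 31 members for which a ratio could be formed, by a median of 2.33-fold and a range of 1.06- to 3.71-fold, and the mean of the 16 cardiomyocyte markers was 1.2 higher on the log2 scale in that library. At P1, replicate 2 exceeded replicate 1 at 32 members by a median of 1.5-fold, and its cardiomyocyte marker mean was 0.64 higher.

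**Figure D2:**
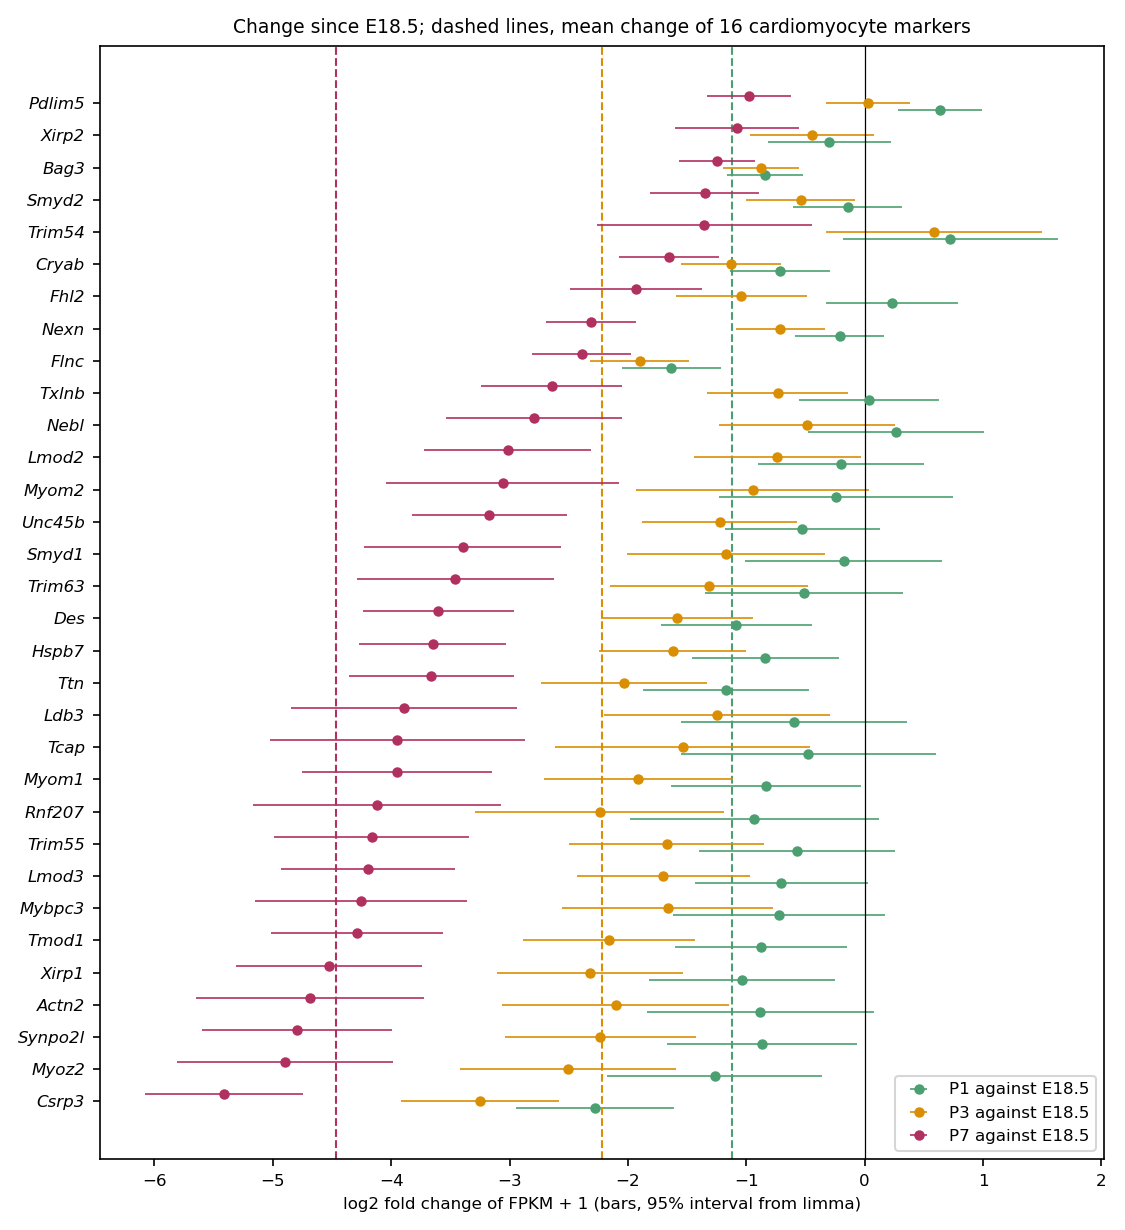
Log2 fold change of FPKM + 1 from E18.5 to P1, P3 and P7 for the 32 members tested, with 95% intervals from limma, ordered by the change at P7. Dashed lines give the mean change of 16 cardiomyocyte markers, namely −1.12 (P1), −2.22 (P3) and −4.46 (P7). Csrp3 lies furthest to the left and Pdlim5 furthest to the right at P7.

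The group of titin, the M-band and myosin binding protein C was called lower at P7 in 4 of 4 genes tested, with a median log2 fold change of −3.81. Mybpc3 (chr2:91118144-91136516, mm10, plus strand), cardiac myosin binding protein C, was the most abundant of them at 576 and 782 FPKM (E18.5), 324 and 508 (P1), 218 and 204.3 (P3) and 53.9 and 21.6 (P7). The libraries of Mybpc3 separated by age without overlap, and its log2 fold change at P7 was −4.25 (SE 0.39, adjusted p = 6.71e-05). Ttn (chr2:76703980-76982547, minus strand), the titin spring, measured 15.5 and 19.6 FPKM (E18.5), 5.15 and 9.93 (P1), 2.75 and 4.41 (P3) and 0.626 and 0.310 (P7). It kept 2.67% of its E18.5 mean, and it was the only member of this group called at P1 (log2 fold change −1.17, SE 0.30, adjusted p = 0.0165), a call lost without E18.5 replicate 2 (adjusted p = 0.0955) and without P1 replicate 1 (adjusted p = 0.0929). Myom1, the myomesin of all striated muscle, fell by 3.95 (SE 0.35) on the log2 scale at P7, and Myom2, the M-protein of fast and cardiac muscle, fell by 3.06 (SE 0.43). At P3, Myom2 was at −0.95 (SE 0.43, adjusted p = 0.102) and was the only one of the 4 not called. At P1 neither myomesin was called, with Myom1 at 46.4 and 89.3 FPKM against 98.7 and 135.5 at E18.5 (log2 fold change −0.83, adjusted p = 0.0885) and Myom2 at 43.7 and 72.0 against 57 and 77.5 (−0.24, adjusted p = 0.682). Myom1 shares 207 exonic bases with Myl12a on the other strand, whose mean level was 401 FPKM, and reads there cannot be told apart if strand was not recorded.

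Z-disc scaffolds held both the largest and the smallest fall. Of 10, 2 were called lower at P1, 7 at P3 and 9 at P7, where the median log2 fold change was −3.92. Csrp3 (chr7:48830398-48848033, minus strand), the muscle LIM protein, was the most abundant member at E18.5 with 605 and 927 FPKM. It then measured 130 and 182 FPKM (P1), 82.3 and 73.6 (P3) and 21.8 and 12.6 (P7). It had dropped from rank 1 to rank 11 among the 33, kept 2.25% of its E18.5 mean, and had the largest log2 fold change of the members at P1 (−2.28, SE 0.29, adjusted p = 0.000762) and at P7 (−5.41, SE 0.29, adjusted p = 9.18e-06). Actn2 (chr13:12269426-12340760, minus strand), the alpha-actinin of the cardiac Z-disc, measured 542 and 752 FPKM (E18.5), 265.6 and 451 (P1), 154 and 142 (P3) and 38.6 and 14.6 (P7). Its log2 fold change at P7 was −4.69 (SE 0.42, adjusted p = 6.05e-05), and at P1 it was −0.88 (adjusted p = 0.126).

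Myoz2 (chr3:123006206-123035015, minus strand), calsarcin-1, which tethers calcineurin to alpha-actinin, measured 231 and 292 FPKM (E18.5), 90.5 and 127 (P1), 54.9 and 36.7 (P3) and 12.7 and 4.58 (P7). Myoz2 changed by −4.90 on the log2 scale at P7 (SE 0.40, adjusted p = 4e-05) and −1.27 at P1 (adjusted p = 0.0338), and the P1 call was lost when any 1 of the 4 E18.5 and P1 libraries was left out (adjusted p of 0.0509 to 0.162). Synpo2l (chr14:20658946-20668354, minus strand), an actin-bundling Z-disc protein, measured 112 and 133 FPKM (E18.5), 56.5 and 78.7 (P1), 26.8 and 23.8 (P3) and 5.76 and 1.92 (P7). This was a log2 fold change of −4.79 (SE 0.35, adjusted p = 2.86e-05), and Synpo2l kept 3.13% of its E18.5 mean. Tcap, which caps the end of titin in the Z-disc, and Ldb3, a PDZ and LIM scaffold, fell by 3.95 and 3.89 on the log2 scale at P7 and were at −0.48 and −0.59 at P1, where neither was called.

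Pdlim5 (chr3:142239590-142395696, minus strand), another PDZ and LIM scaffold of the Z-disc, took a different course. It measured 103.1 and 121 FPKM (E18.5), 161 and 190.1 (P1), 124 and 106 (P3) and 61.0 and 51.9 (P7). Both P1 libraries lay above both E18.5 libraries, with a log2 fold change of 0.64 (SE 0.15, adjusted p = 0.0123) that is under the limit of 1. At P7 it was at −0.98 (SE 0.15, adjusted p = 0.001), with 50.3% of its E18.5 mean, and so passed the p threshold and missed the limit on size. It was called without E18.5 replicate 1 (−1.10) and without P7 replicate 1 (−1.09), and with median-of-ratios size factors (−1.10), while limma-voom on reads estimated from coverage gave −0.23 (adjusted p = 0.129). Fhl2, a LIM domain cofactor of the Z-disc and I-band, measured 323 and 476 FPKM at E18.5 and 366 and 579 at P1, which overlap, before it went to 199.7 and 181 by P3 and to 105 and 99.1 by P7. Fhl2 changed by −1.04 on the log2 scale at P3 (SE 0.24, adjusted p = 0.00835) and −1.93 at P7 (SE 0.24, adjusted p = 0.000309). Nebl, the nebulette that binds thin filaments at the Z-disc, was at 0.27 at P1 and −2.79 at P7, and Nexn, an F-actin binding protein, was at −0.21 at P1 and −2.31 at P7.

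Of the actin crosslinker and Xin repeat genes, Flnc and Xirp1 were called lower at P1, and 3 of 3 at P7 with a median log2 fold change of −2.39. Flnc (chr6:29433256-29461883, plus strand), filamin C, measured 101 and 87.1 FPKM (E18.5), 25.6 and 34.3 (P1), 22.7 and 26.3 (P3) and 19.0 and 15.4 (P7). The log2 fold change was already −1.63 at P1 (SE 0.18, adjusted p = 0.000421) and reached −2.39 at P7 (SE 0.18, adjusted p = 3.18e-05), and from P1 to P7 it was −0.76, under the limit. Xirp1 (chr9:120013755-120023598, minus strand), a Xin repeat protein of intercalated discs, measured 69.3 and 50.2 FPKM (E18.5), 21.2 and 37.6 (P1), 11.8 and 10.3 (P3) and 2.53 and 0.924 (P7). Xirp1 changed by −1.04 at P1 (adjusted p = 0.0411) and −4.52 at P7 (SE 0.34, adjusted p = 3.18e-05). The P1 call was lost without E18.5 replicate 1, E18.5 replicate 2, P1 replicate 1 or either P3 library (adjusted p of 0.0577 to 0.23). Xirp2 (chr2:67446002-67526614, plus strand), its relative, was low throughout at 1.34 and 1.40 FPKM (E18.5), 0.519 and 1.45 (P1), 0.707 and 0.787 (P3) and 0.161 and 0.091 (P7). Its log2 fold change of −1.08 (SE 0.23, adjusted p = 0.00446) is compressed by the added 1, and its P7 mean was 9.16% of that at E18.5.

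The intermediate filament and small heat shock genes were called lower at P7 in 4 of 4 cases, with a median log2 fold change of −2.63, Cryab and Bag3 falling less and Des and Hspb7 more than the median of all members. Cryab (chr9:50751325-50756636, plus strand), alpha B-crystallin, the chaperone of desmin and titin, measured 401 and 553 FPKM (E18.5), 254 and 324 (P1), 214 and 215 (P3) and 159 and 140.2 (P7). It moved from rank 6 to rank 1, with a log2 fold change of −1.65 at P7 (SE 0.18, adjusted p = 0.00017), and it shares 252 exonic bases with Hspb2 on the other strand, whose reads cannot be told apart from its own if strand was not recorded. Bag3 (chr7:128523616-128546981, plus strand), the co-chaperone that directs worn filamin to degradation, measured 102 and 125 FPKM (E18.5) and then varied little, at 62.4 and 62.6 (P1), 59.2 and 62.9 (P3) and 50.6 and 43.5 (P7). Its log2 fold change of −1.25 at P7 (SE 0.14, adjusted p = 0.000176) had reached −0.84 by P1 (adjusted p = 0.00251). Des, the muscle intermediate filament, and Hspb7, a cardiac small heat shock protein, were at −3.60 and −3.65 at P7. Des was also called at P1 (−1.08, adjusted p = 0.0157), though not without E18.5 replicate 1, E18.5 replicate 2 or P1 replicate 1 (adjusted p of 0.0515 to 0.0882).

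The caps of the thin filament pointed end were all called lower at P7, 3 of 3, with a median log2 fold change of −4.20. Tmod1 (chr4:46038935-46116032, plus strand), tropomodulin-1, measured 104 and 124 FPKM (E18.5), 50.1 and 75.4 (P1), 23.9 and 25.4 (P3) and 7.30 and 3.14 (P7), a log2 fold change of −4.29 (SE 0.32, adjusted p = 3e-05). It shares 1287 exonic bases with Tstd2 on the other strand, at a mean of 10.3 FPKM. The leiomodins, which lengthen thin filaments where tropomodulin caps them, differed in size, with Lmod3 at −4.20 (SE 0.32) and Lmod2 at −3.02 (SE 0.31). Lmod2 was at −0.74 at P3 (adjusted p = 0.0783), and its P1 libraries of 53.0 and 76.8 FPKM overlapped those of E18.5 at 67.8 and 79.5.

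Myosin folding and SMYD genes were not called at P1, and 2 of 3 were called lower at P3 and 3 of 3 at P7. Unc45b, the myosin chaperone of striated muscle, fell by 3.17 (SE 0.28) and Smyd1, a muscle-restricted lysine methyltransferase, fell by 3.40 (SE 0.36) on the log2 scale at P7. Smyd2 (chr1:189880492-189922363, minus strand), a broadly expressed methyltransferase that binds titin through HSP90, measured 90.7 and 126 FPKM (E18.5), 84.5 and 111 (P1), 78.7 and 68.4 (P3) and 45.1 and 37.9 (P7). It kept 38.3% of its E18.5 mean, with a log2 fold change of −1.35 (SE 0.20, adjusted p = 0.000729), and rose in rank from 18 to 5 among the members. Smyd2 shares 814 exonic bases with an antisense gene.

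Ubiquitin ligases of the sarcomere were all called lower at P7, 4 of 4, with a median log2 fold change of −3.79. Trim63 (chr4:134315120-134329629, plus strand), muscle RING finger 1, measured 119 and 102 FPKM (E18.5), 65.5 and 90.7 (P1), 49.2 and 38.8 (P3) and 14.6 and 5.57 (P7), a log2 fold change of −3.46 (SE 0.36, adjusted p = 0.000128). Trim55, muscle RING finger 2, fell by 4.17 (SE 0.36) and Rnf207, a cardiac RING finger protein that shares exonic bases with Icmt on the other strand, fell by 4.12 (SE 0.46). Trim54 (chr5:31116712-31137630, plus strand), muscle RING finger 3, measured 14.5 and 7.77 FPKM (E18.5), 16.9 and 19.7 (P1), 16 and 16.9 (P3) and 6.02 and 1.96 (P7). Both P1 and both P3 libraries lay above both E18.5 libraries, with log2 fold changes of 0.73 (SE 0.40, adjusted p = 0.176) and 0.58 (adjusted p = 0.253) that did not pass the test. At P7 it was called lower at −1.35 (SE 0.40, adjusted p = 0.0198), a call lost without E18.5 replicate 1 (−0.94) and without P7 replicate 2 (−0.73). Txlnb (chr10:17796226-17845665, plus strand), muscle beta-taxilin, measured 15.5 and 16.9 FPKM (E18.5), 14.0 and 19.8 (P1), 9.51 and 9.18 (P3) and 2.56 and 1.12 (P7), and its only call was at P7 (−2.64, SE 0.26, adjusted p = 9.17e-05).

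The order of the members changed between E18.5 and P7. The 5 highest at E18.5 by mean FPKM were Csrp3, Mybpc3, Actn2, Des and Hspb7, and at P7 they were Cryab, Fhl2, Pdlim5, Bag3 and Smyd2, which had ranked 6, 7, 16, 15 and 18. These 5 and Trim54 were the members that kept at least 25.5% of their E18.5 mean, at 50.3% for Pdlim5, 41.5% for Bag3, 38.3% for Smyd2, 35.9% for Trim54, 31.4% for Cryab and 25.5% for Fhl2. At the other end, Csrp3, Ttn, Xirp1, Synpo2l and Myoz2 kept 2.25% to 3.30%.

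Each member was also read against the cardiomyocyte markers, by subtracting in each library the mean log2(FPKM + 1) of the 16 markers from every gene. On this relative scale 14 of 32 members were called higher at P7 than at E18.5, where 99.1% of all genes tested were, and 0 of 32 were called lower, where 0.0644% were. The median relative change was 0.94 for the members and 4.61 for all genes. Members ranged from −0.94 for Csrp3 (SE 0.58, adjusted p = 0.101) to 3.49 for Pdlim5 (SE 0.58, adjusted p = 1.75e-09), and 18 of 32 were not called. The 14 were Myom2, Nebl, Nexn, Pdlim5, Fhl2, Flnc, Xirp2, Cryab, Bag3, Lmod2, Smyd2, Unc45b, Trim54 and Txlnb. At P1, 4 were called higher on this scale (42.8% of all genes), namely Pdlim5 (1.76), Trim54 (1.85), Nebl (1.39) and Fhl2 (1.35), and 0 lower (0.551% of all genes). At P3, 11 were called higher (91.1% of all genes) and 0 lower (0.265% of all genes). The largest departure downward at P1 was Csrp3 at −1.16 (adjusted p = 0.0817). Without P7 replicate 2, 1 member was called lower at P7. Xirp2 and Ttn, at or under 1 FPKM at P7, are compressed by the added 1, which raises their relative values.

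Among 50 other sarcomere genes listed for comparison, 44 were tested and the pattern was mixed. At P7, 20 were called lower and 3 higher, with a median log2 fold change of −0.94. The falls were led by Smpx (−4.52), Nrap (−4.38), which scaffolds early myofibrils, Cavin4 (−3.82) and Fsd2 (−3.43). The 3 higher genes were Lmod1 (2.56), the smooth muscle leiomodin, Actn1 (2.26) and Flna (1.22), the non-muscle alpha-actinin and filamin. These are relatives of Lmod2 and Lmod3, Actn2 and Flnc, which fell. Some relatives of members fell with them, as Myoz1 and the small heat shock genes Hspb1, Hspb6 and Hspb8 were called lower. Other relatives of members were not called, among them Actn4, Tmod2, Tmod3, Unc45a, Synpo2, Csrp1, Csrp2, Pdlim1 and Pdlim7. The smooth muscle and fibroblast marker sums given above rose over the same ages, and their part in the rises of Lmod1, Actn1 and Flna was not tested.

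Transcripts of single genes were examined next, since a gene sum can hide a change of isoform. The shares are StringTie estimates from short reads, given as descriptions without a test, and 16 members met the rule for description. In Flnc, the main transcripts differ by exon 31, whose 99 bases add 33 codons to the longer form. This exon is printed because it separates the falling from the lasting form, with no base in capitals.
Flnc exon 31, chr6:29452799-29452897, GRCm38.p6, plus strand: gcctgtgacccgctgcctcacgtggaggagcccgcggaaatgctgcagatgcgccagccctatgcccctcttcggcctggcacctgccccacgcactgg
The form without the exon measured 77.0 and 67.5 FPKM (E18.5), 10.2 and 17.2 (P1), 5.59 and 8.31 (P3) and 2.24 and 1.11 (P7), a 43.1-fold lower mean. The form with the exon measured 24.1 and 19.4 FPKM (E18.5), 15.4 and 17.1 (P1), 17.1 and 17.9 (P3) and 16.7 and 14.3 (P7), a 1.41-fold lower mean. The share of the exon-containing form went from 23.8% and 22.2% at E18.5 to 87.9% and 92.7% at P7, and replicates of each age were close together. The early fall of Flnc described above was therefore mostly that of the form without exon 31.

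In Fhl2 the change was one of start site. The main transcripts begin 33 kb apart, at bases 43163961 and 43196984 of chromosome 1, and hold a coding length of 837 bases each. The upstream-start transcript measured 246 and 398 FPKM (E18.5), 286 and 468 (P1), 126 and 94.3 (P3) and 21.2 and 10.4 (P7), which is 20.4-fold lower. The transcript from the downstream start, whose CArG match is printed above, measured 76.2 and 76.5 FPKM (E18.5), 78.3 and 109 (P1), 72.9 and 86.4 (P3) and 83.1 and 88.6 (P7). It was 1.12-fold higher at P7, and its share rose from 23.6% and 16.1% to 79.3% and 89.4%. Each start carried a peak of its own in 7 of 8 ATAC-seq libraries, all but P1 replicate 2. The upstream start has a CArG and a MEF2 match of its own, at 96 and 31 bases before it and also in a peak region, so both starts hold a CArG match.

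In Pdlim5 the long and short forms parted. The long form, with a coding length of 1773 bases, measured 24.0 and 19.6 FPKM (E18.5), 52.5 and 52.5 (P1), 45.1 and 48.4 (P3) and 39.0 and 39.4 (P7), a 1.80-fold rise. The main short form, with a coding length of 702 bases, measured 40.2 and 57.7 FPKM (E18.5), 55.0 and 71.1 (P1), 37.8 and 25.8 (P3) and 9.70 and 3.76 (P7), a 7.27-fold fall. The short form thus led at E18.5 and P1, and the long form at P3 and P7. The exonic lengths of the long and short form are 5016 and 1755 bases, and a sum of FPKM weighs both alike while estimated reads, as in the limma-voom value given above, weigh the long form more.

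Myom1 carries an alternative segment that is known as the EH segment of embryonic heart myomesin, and exon 18 of the longer main transcript adds 294 bases, or 98 codons, that the shorter one lacks. It is printed because it distinguishes both forms, with no base in capitals.
Myom1 exon 18, chr17:71082203-71082496, GRCm38.p6, plus strand: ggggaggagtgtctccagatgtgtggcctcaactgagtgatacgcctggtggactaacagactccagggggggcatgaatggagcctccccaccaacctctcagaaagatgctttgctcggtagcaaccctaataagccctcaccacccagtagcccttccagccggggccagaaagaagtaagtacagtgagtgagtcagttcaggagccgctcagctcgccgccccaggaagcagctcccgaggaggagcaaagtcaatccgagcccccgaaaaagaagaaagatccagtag
The share of the form with the exon was 81.5% and 82.6% (E18.5), 63.7% and 71.2% (P1), 36.2% and 57% (P3) and 44.2% and 56.0% (P7). That of the form without it was 7.0% and 7.0% (E18.5), 16.1% and 7.0% (P1), 46.6% and 29.7% (P3) and 31.3% and 18.4% (P7). The form with the exon was the larger at E18.5 in both libraries, and at P3 the libraries disagreed on which form led. In Synpo2l the downstream-start transcript went from 104 and 122 FPKM at E18.5 to 0.97 and 1.10 at P7, 109-fold lower, while the upstream-start transcript was 6.6-fold lower, at 7.74 and 11.5 FPKM against 2.09 and 0.82. The P7 levels are low, and the share of the downstream-start transcript was 16.9% and 57.1% there. The P7 libraries thus disagreed on which of both was larger. In Ttn a short form of 45 exons and a long form of 312 exons were 32.5-fold and 31.4-fold lower at P7. For Mybpc3, Smyd1, Trim63, Trim54 and Xirp2 the shares differed widely between libraries of the same age, and no change is read from them. Ldb3, Nexn, Nebl, Des and Trim55 also met the rule and are not described further. Of these, Ldb3 and Nexn changed their leading transcript between ages.

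**Figure D3:**
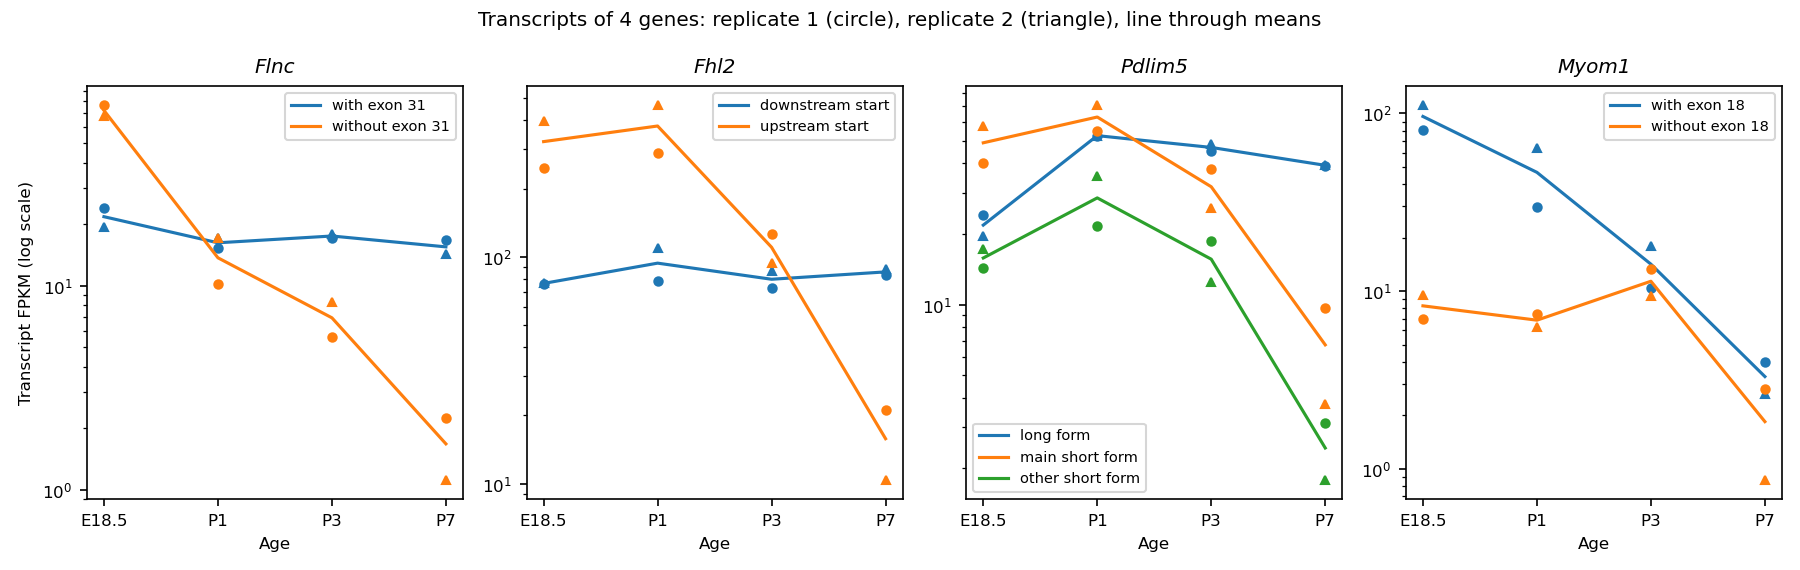
Transcript FPKM (log scale) by age for Flnc, Fhl2, Pdlim5 and Myom1, with circles for replicate 1, triangles for replicate 2 and lines through the mean of both. At P7 the Flnc form with exon 31 is 1.41-fold lower, the downstream-start Fhl2 transcript 1.12-fold higher and the long Pdlim5 form 1.80-fold higher than at E18.5, while the Flnc form without it, the upstream-start Fhl2 transcript and the main short Pdlim5 form are 43.1-, 20.4- and 7.27-fold lower.

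Open chromatin at the start sites was read as the presence of an ATAC-seq peak within 2.5 kb of a transcript start. Both libraries of an age held such a peak at 15 of 33 members for E18.5 (45.5%), 12 for P1 (36.4%), 19 for P3 (57.6%) and 18 for P7 (54.5%). Over all genes tested these shares were 56.7%, 41.3%, 87.5% and 83.2%. The replicates of an age differed, with 22 and 18 members at E18.5 (67.1% and 62.4% of all genes), 30 and 12 for P1 (69.2% and 43.0%), 25 and 19 for P3 (91.7% and 87.7%) and 20 and 26 for P7 (86.5% and 85.5%). P1 replicate 1 thus held a peak at 90.9% of the members, above the share of all genes, and P3 and P7 libraries held fewer members than genes in general. The peak lists ranged from 13149 to 95257 peaks and were shortest at E18.5, and with the 13149 strongest peaks of each library the members' counts were 15, 8, 4 and 5, beside 54.1%, 31.5%, 37.2% and 45.2% of all genes. Actn2, Ldb3, Pdlim5, Cryab, Bag3, Lmod2 and Txlnb held a peak in all 8 libraries. Xirp2 held none, Smyd1 held one only in P1 replicate 1, and Trim54 only in P3 replicate 1. The highest fold enrichments over background were 11.5 at Bag3 and 10.9 at Cryab, both in P3 replicate 2.

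Between E18.5 and P3, Ttn, Csrp3, Synpo2l and Trim55 went from a peak in both libraries to a peak in neither, 4 of 33 (12.1%), against 0.0715% of all genes. At Ttn the fold enrichment was 6.61 and 5.24 at E18.5, at Csrp3 4.90 and 6.37, at Synpo2l 4.12 and 5.08, and at Trim55 6.50 and 6.29. All 4 genes also held a peak in P1 replicate 1 (7.82, 4.98, 5.17 and 7.01) and in P7 replicate 2 (5.59, 4.23, 3.81 and 4.31), and none in P1 replicate 2 or P7 replicate 1. The replicates of P1 and P7 thus disagreed on these starts, and 0 of 33 were lost between E18.5 and P7 (0.0286% of all genes). These counts depend on list length. With lists of equal length 10 of 33 were lost at P3 (30.3%, against 8.98% of all genes) and 8 of 33 at P7 (24.2%, against 3.29%). At Synpo2l the E18.5 peaks lay at different starts, the upstream one in replicate 1 and the downstream one in replicate 2. In the other direction Myom3, Nexn and Smyd2 gained a peak in both libraries at P3, 3 of 33 (9.09%, against 15.6% of all genes), and these and Des at P7, 4 of 33 (12.1%, against 12.1%), and at P1 0 were gained (1.37% of all genes) and 0 lost (3.81%). ATAC-seq coverage was not used here, so a change in the height of a lasting peak was not measured.

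**Figure D4:**
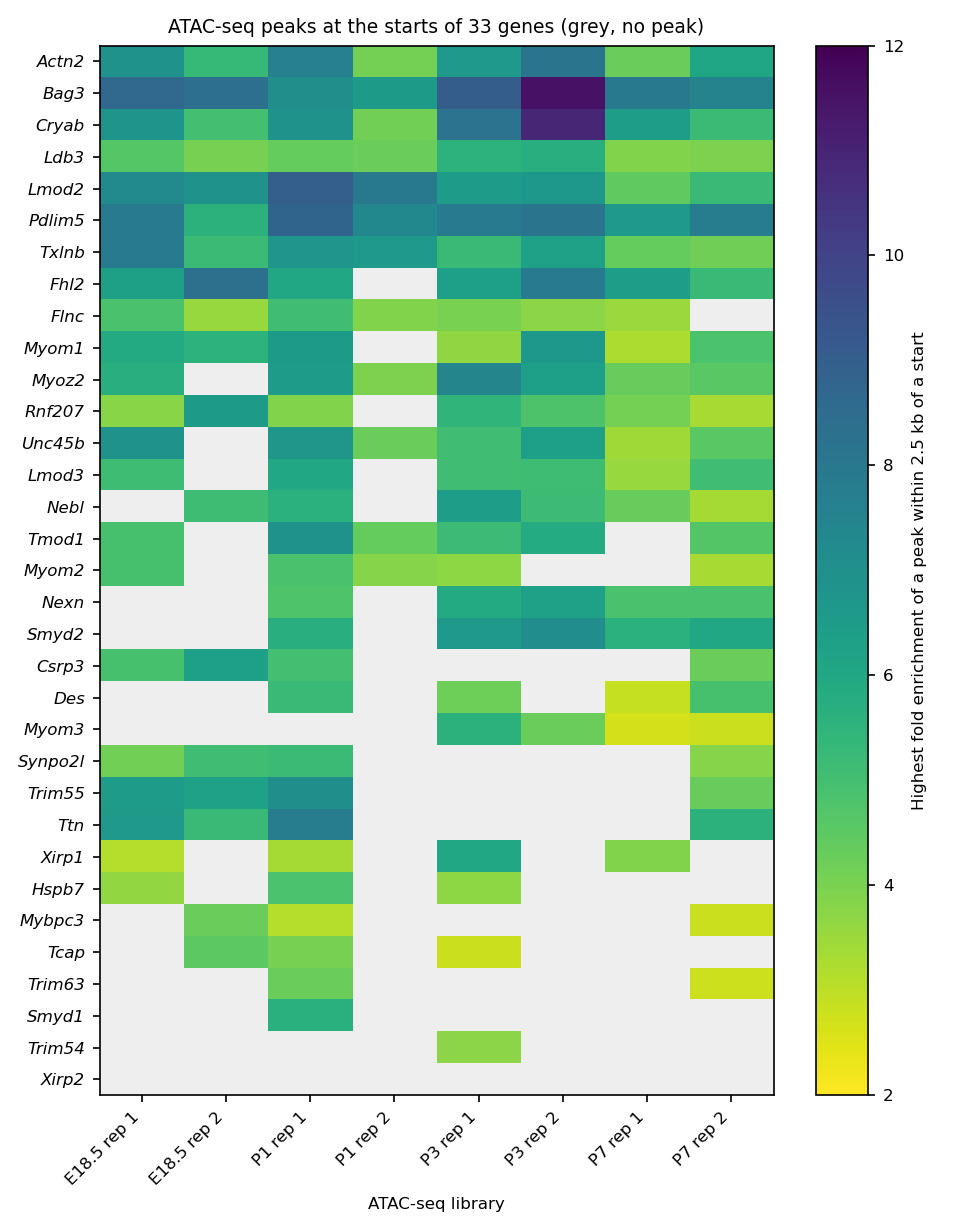
Highest MACS2 fold enrichment of a peak within 2.5 kb of a start of each of the 33 genes (rows) in the 8 ATAC-seq libraries (columns), with grey for no peak. Actn2, Ldb3, Pdlim5, Cryab, Bag3, Lmod2 and Txlnb hold a peak in every library, Ttn, Csrp3, Synpo2l and Trim55 hold one in both E18.5 libraries, P1 replicate 1 and P7 replicate 2, and Xirp2 holds none.

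In rat cardiomyocytes no member passed the test for TSA against DMSO. Of 31 members in the files, 29 were tested, as Myom3 and Lmod3 were below the limit of 1 FPKM in 3 libraries. By limma over 13625 genes, 0 of 29 were called lower (0.316% of all genes) and 0 higher (1.81%). At an unadjusted p under 0.05 there were 4, Myom2, Actn2, Fhl2 and Tmod1 (13.8%, against 19.8% of all genes), and the lowest adjusted p was 0.111. The median log2 fold change was −0.08 for the members and 0.03 for all genes. For 20 members the 95% interval lay within 1 of no change on the log2 scale, so a change of the size of the call limit lay outside it, and for the other 9 it did not.

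The libraries numbered 3 stood apart in both arms. The summed cardiomyocyte markers were at 27096 FPKM in DMSO replicate 3 against 17515 and 18539 in the others, and at 38677 in TSA replicate 3 against 16743 and 14916. Their mean log2(FPKM + 1) was lower in DMSO replicate 3 (9.40 against 9.50 and 9.56) and higher in TSA replicate 3 (10.09 against 9.47 and 9.32), so the sum and the mean differ in direction with DMSO. Macrophage markers summed to 486.0 FPKM in DMSO replicate 3 against 1006 and 1027, and to 421 in TSA replicate 3 against 552 and 474, and fibroblast markers to 8348 against 7665 and 8378 with DMSO and to 4605 against 7219 and 6913 with TSA. Smooth muscle and pericyte markers were at 2411 FPKM against 994 and 910.5 with DMSO and at 1643 against 680.3 and 678 with TSA. DMSO replicate 3 exceeded 1.5 times the mean of the other DMSO libraries at 6 members, and TSA replicate 3 did so at 10. Members went the other way too, with a median ratio to that mean of 0.999 for DMSO and 1.19 for TSA. In DMSO replicate 3 the ratio was 0.385 at Nebl, 0.457 at Trim54 and 0.498 at Rnf207. Named results below are given with and without both.

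Xirp2 had the largest difference and the largest spread. It measured 7.19, 4.70 and 107 FPKM with DMSO and 2.11, 2.34 and 8.44 with TSA, and the groups overlapped. By number it was lower with TSA in 3 of 3 pairs, though equal numbers need not pair libraries. The log2 fold change was −1.90 (SE 1.10, 95% interval −4.50 to 0.71, adjusted p = 0.406, exact permutation p = 0.3, two-sided). Without both libraries numbered 3 it was −1.08 (adjusted p = 0.0215) and was called. Myom2 measured 22.2, 14.3 and 16.6 FPKM with DMSO and 4.30, 4.27 and 13.6 with TSA, so every TSA library was below every DMSO library. The log2 fold change was −1.31 (SE 0.41, 95% interval −2.28 to −0.34, adjusted p = 0.138), and the exact permutation p of 0.1, two-sided, is the smallest that 3 against 3 libraries allow. It was called without TSA replicate 3 (−1.80, adjusted p = 0.0221) and without both libraries numbered 3 (−1.83, adjusted p = 0.0062). Csrp3 measured 278, 198 and 1051 FPKM with DMSO and 176, 183 and 502 with TSA. Its log2 fold change was −0.61 (SE 0.68, adjusted p = 0.684, exact permutation p = 0.5, two-sided), it went to 0.11 without DMSO replicate 3 and to −0.39 without both libraries numbered 3 (limma adjusted p = 0.154), and its high value in both libraries numbered 3 exceeded any difference between the arms.

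Other members with a small spread showed small shifts. Actn2 measured 583, 504 and 638 FPKM with DMSO and 730.1, 770.0 and 891 with TSA, which do not overlap, with a log2 fold change of 0.47 (SE 0.13, adjusted p = 0.111, exact permutation p = 0.1, two-sided). Tmod1 measured 79.6, 77.9 and 70.8 FPKM with DMSO and 90.8, 92.0 and 89.9 with TSA, a log2 fold change of 0.26 (SE 0.09, adjusted p = 0.166, exact permutation p = 0.1, two-sided). Without both libraries numbered 3, limma gave 0.47 (adjusted p = 0.0214) for Actn2, 0.21 (adjusted p = 0.0436) for Tmod1 and −0.39 (adjusted p = 0.0249) for Fhl2, under the limit on size. Mybpc3 (−0.55), Synpo2l (−0.46), Nexn (−0.29) and Smyd1 (−0.28) also had an adjusted p under 0.05 there, below that limit too. This refit was chosen after seeing the data. It gave 4784 of 13625 genes an unadjusted p under 0.05, beside 2699 with all libraries. Actn2, Tmod1 and Myom2 were the 3 of 29 members whose groups did not overlap, a pattern found at 27.2% of all genes tested. Among the ubiquitin ligases, Trim54 and Rnf207 were at −0.57 (SE 0.30) and −0.60 (SE 0.28), and Trim63 and Trim55 at −0.22 and −0.08. Without both libraries numbered 3 they were at −0.87 (adjusted p = 0.00231), −0.83 (adjusted p = 0.00555), −0.44 (adjusted p = 0.0122) and −0.01 (adjusted p = 0.914) by limma, with the limit on size not reached. Of the 44 other sarcomere genes tested in rat, 0 were called and 10 (22.7%) had an unadjusted p under 0.05, beside 19.8% of all genes.

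**Figure D5:**
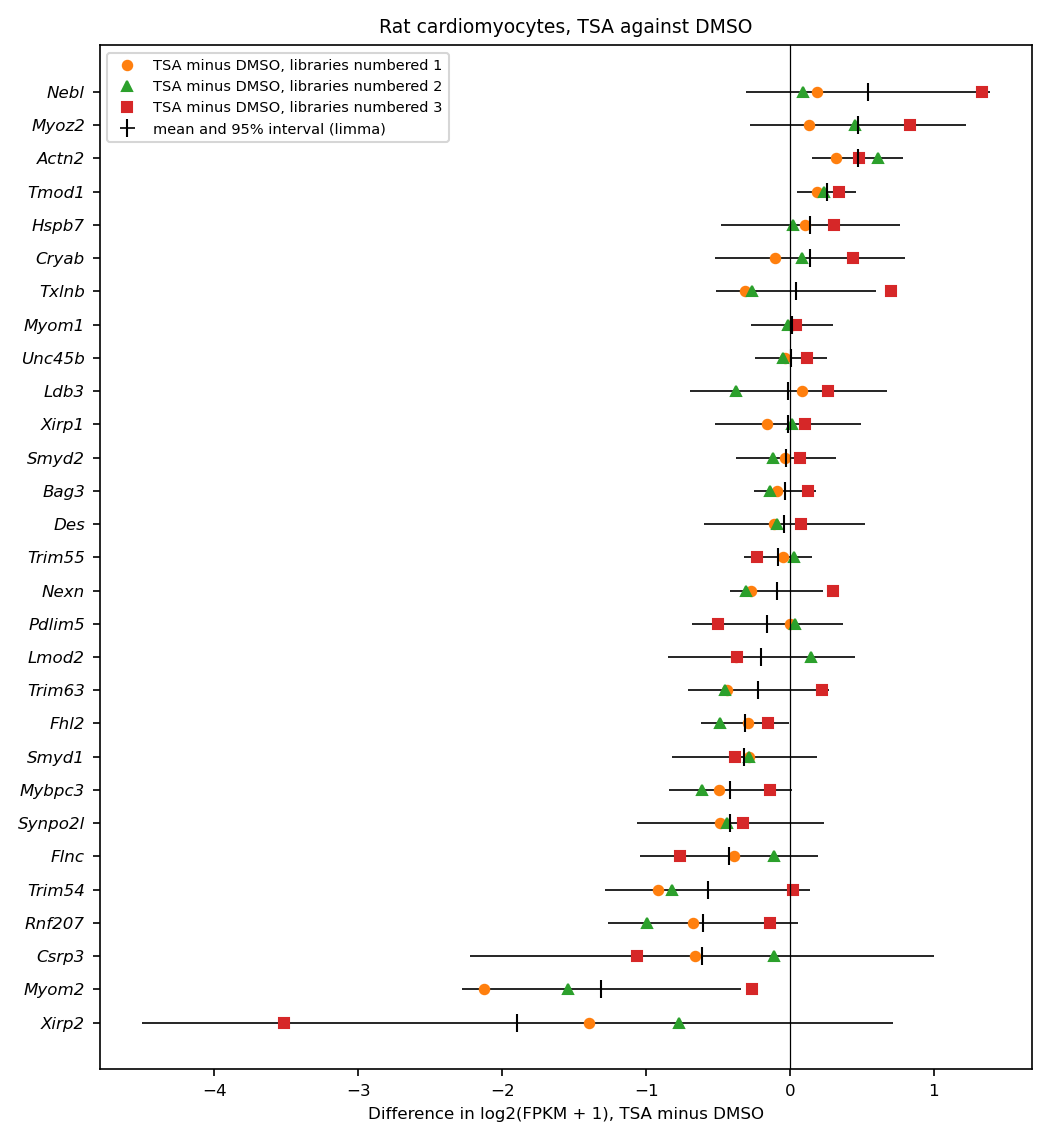
Difference in log2(FPKM + 1) between TSA and DMSO for the 29 members tested in rat cardiomyocytes, with 1 point per pair of equal number and a bar for the mean with its 95% interval from limma. Only Myom2, Actn2, Fhl2 and Tmod1 have an interval that leaves out 0, and the pair numbered 3 stands furthest from the others at Xirp2, Myom2 and Nebl.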

How the data were processed

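RNA-seq and ATAC-seq libraries of mouse cardiomyocytes and RNA-seq libraries of rat NRVCs were used, and 6 HiChIP libraries were not analysed here. Groups were taken from the labels. Poly-A RNA was sequenced as 150 base paired reads, and strand is not given in the sources used here. The authors aligned reads with HISAT2 2.1.0 and assembled transcripts with StringTie (1.3.5 for mouse, 1.3.4d for rat), and deposited FPKM, TPM and coverage per transcript. The authors aligned ATAC-seq reads with bowtie2 to mm10 and called peaks in each library with MACS2, and the deposited peak lists give a score, a fold enrichment ratio and −log10 p and q values. Coverage of ATAC-seq was not used.

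Transcript FPKM was added up per gene. The authors ran edgeR on counts for their own comparisons. Counts were not used here, so log2(FPKM + 1) was tested with limma 3.58.1 (R 4.3.3), with a trend, over all genes at 1 FPKM or more in at least 2 mouse or 3 rat libraries, and the fit was tested on simulated data. All adjusted p-values are two-sided limma values with Benjamini-Hochberg adjustment over all genes tested, and a call needs an adjusted p below 0.05 and a log2 fold change over 1 in size. The exact permutation test over the 20 splits of 6 rat libraries cannot go below 0.1. The study describes its replicates as biological, and which animals went into each library is not given in the sources used here. Within groups, Spearman correlations were 0.968 to 0.983 in mouse and 0.951 to 0.986 in rat. Rat libraries of equal number deviated together (correlations of 0.224, 0.194 and 0.346). DMSO replicate 2 with TSA replicate 1 and DMSO replicate 1 with TSA replicate 2 did so too (0.167 and 0.090). The deviations thus set the libraries numbered 3 apart and do not pair the others by number, and the labels give no pairing.

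Values in every library were given for the member of highest mean FPKM in each role group, the 5 largest and 5 smallest falls at P7, and the 3 largest TSA differences. Other members were added where a result turned on them, with their values known. The members and the marker lists were chosen with earlier results of these data known. Promoter peaks overlapped 2.5 kb around any transcript start. Transcripts were described where the leading one changed between ages or where at least 2 held 20% of the gene, except at Ldb3, Nexn, Nebl, Des and Trim55. Alternatives were a pseudocount of 0.1, TPM in place of FPKM, no filter or a filter at a mean of 5 FPKM, limma-voom on reads that were estimated from coverage, size factors by the median of ratios, a replicate block, fits of only the 2 ages compared, leaving out each library, and other peak limits. Proteins were not compared here.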

Additional observations from a re-analysis of the deposited data

How the results depend on the processing

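Members called lower at P7 against E18.5 numbered 30 to 32 in all alternatives, and 27 to 30 against P1. At P3 the other settings gave 17 to 23, and leaving out single libraries gave 14 to 22. The P1 count of 6 was 2 with no filter and 2 with TPM, and 2 to 9 when single libraries were left out. The cause was not tested. Of the 6, Csrp3 and Flnc were called in all 16 alternatives. Fhl2 at P1 ranged from −0.101 to 0.561 when single libraries were left out and was −0.049 without E18.5 replicate 1. At P7, Bag3 missed the limit on size with TPM (−0.99), and Trim54 was not called with no filter or with only the 2 ages. Relative to the cardiomyocyte markers 11 to 15 members were higher at P7 and 0 lower with settings other than leaving out single libraries. At the main filter these settings called 13168 to 13854 of 13979 genes higher. Both member counts moved when single libraries were left out. For TSA 0 to 1 were lower when single libraries were left out, beside 3 to 176 of 13625 genes. There were 2 lower without both libraries numbered 3, an alternative chosen after seeing the data. Over all genes that refit moved lower calls from 43 to 181 and higher calls from 247 to 368. Csrp3 under TSA ranged from −1.105 to 0.108 when single libraries were left out.

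The replicate block gave 6, 22 and 31 members lower at P1, P3 and P7, beside 849, 1240 and 1715 of 13979 genes. Between P1 and P7 it gave 28 lower, beside 764 genes, and relative to the markers 13 higher, beside 13824. With TSA it gave 0, beside 80 lower and 259 higher of 13625 genes. It thus changed no member count by over 1.5 times. Mouse libraries of equal number shared only a number, with correlations of deviations from −0.10 to 0.17.

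Members with a promoter peak in both libraries numbered 7, 7, 11 and 8 (E18.5, P1, P3 and P7) with the upper 0.5 of each list, beside 32.9%, 28.2%, 73.1% and 65.0% of all genes, and 4 at P3 and 5 at P7 with lists of equal length. Single libraries gave 18 to 22, 12 to 30, 19 to 25 and 20 to 26. The median of all genes at P7 moved from 0.14 to 0.40 with TPM and to 0.05 with size factors, and higher against lower calls over all genes went from 2155 and 1715 to 3361 and 1576 and to 1862 and 1922. Depth was known only as an estimate from coverage and FPKM.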
